A study of Mus musculus with 4 samples.

Results

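The 43 genes described here are collagen genes in the mouse lung at embryonic day 16.5. They are the rows whose whole symbol reads Col, a number, a and a number, out of 22556 genes in the table. The rule used names and no measured value. Col26a1, listed under its older symbol Emid2, was not matched and is not among the members or in their sums. By textbook class, 11 of them encode fibrillar chains, 8 encode basement membrane chains and 24 encode the remaining types. Levels are FPKM, fragments scaled to transcript length and to the mapped reads of the library, so that levels of different genes can be compared per length. The mean of the 4 libraries reached 0.5 FPKM for 34 members, 9 fibrillar, 8 basement membrane and 17 other, and these were tested for a difference between genotypes.

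The 4 libraries came from whole lungs, 2 from Control (Shh-Cre; Stk11F/+) and 2 from Shh-Stk11 (Shh-Cre; Stk11F/F). Whether a library held 1 embryo or several is not stated. Both genotypes carried Shh-Cre and at least 1 floxed Stk11 allele, and cells with Cre activity in the Controls could lose 1 copy. The labels give the strain as C57BL/6, whereas the study's methods describe mixed backgrounds. Shh-Cre acts in the endoderm that forms the airway and alveolar epithelium, so the fibroblasts, smooth muscle and endothelium that make most collagen kept their Stk11 alleles. STK11 is a kinase and tumor suppressor, and the study deleted it to follow ciliated cell differentiation.

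In whole-organ RNA, fewer cells of a type and less RNA per cell cannot be told apart. Stk11 was at 44.0 and 45.5 FPKM in Control and at 29.5 and 26.0 FPKM in Shh-Stk11 lungs, 61.9% of the Control mean (-0.69 ± 0.13 SE on the log2 scale, limma adjusted p = 0.0499). This difference stayed below 0 but was called in 2 of 15 alternatives, with adjusted p up to 0.228. Xist read 65.1, 90.7 and 169 FPKM in Control 1, Control 2 and Shh-Stk11 1 but 0.239 FPKM in Shh-Stk11 2, and Ddx3y, on the Y chromosome, was at 0.0285 FPKM or less in those 3 libraries but at 23.5 FPKM in Shh-Stk11 2. Shh-Stk11 2 was therefore the library with male RNA. Estimated depth was 29.8 M to 36.8 M reads. The median absolute log2 difference between replicates was 0.183 in Control and 0.158 in Shh-Stk11. The smallest two-sided p of an exact permutation test with 2 libraries in each group is 0.333, and p-values are therefore those of limma's moderated fit over 13770 genes.

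Collagens are secreted proteins in which 3 chains wind into a triple helix. Fibrillar collagens assemble outside the cell into fibrils that give tissue its tensile strength. Type IV collagen forms the sheet-like network of basement membranes beneath epithelium and around vessels and muscle. Type VI collagen forms beaded filaments near cell surfaces, FACIT collagens sit on the surface of fibrils, and transmembrane collagens remain in the cell membrane. In the developing lung the airway and alveolar tubes branch on such a basement membrane within collagen-rich mesenchyme.

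Most chains of one collagen type are encoded as separate genes, and the start regions of the abundant ones differed in sequence. The 4 windows below run from 250 bases before to 50 bases after the start site and come from RefSeq on GRCm38.p6. They are shown for Col1a2 and Col3a1, both abundant fibrillar chains, and for the head-to-head basement membrane pair Col4a1 and Col4a2. Capitals mark a CCAAT box (CCAAT), a GC box (GGGCGG) or a TATA box (TATAAA) found on either strand, and no marked stretch overlaps another within a window.
Col1a2, chr6:4505368-4505667, plus strand: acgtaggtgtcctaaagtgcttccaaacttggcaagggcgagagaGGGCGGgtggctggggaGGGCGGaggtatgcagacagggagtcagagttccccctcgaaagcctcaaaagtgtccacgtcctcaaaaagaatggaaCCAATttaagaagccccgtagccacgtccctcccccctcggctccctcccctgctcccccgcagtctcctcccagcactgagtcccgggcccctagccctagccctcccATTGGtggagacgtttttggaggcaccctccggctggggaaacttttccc
Col3a1, chr1:45311288-45311587, plus strand: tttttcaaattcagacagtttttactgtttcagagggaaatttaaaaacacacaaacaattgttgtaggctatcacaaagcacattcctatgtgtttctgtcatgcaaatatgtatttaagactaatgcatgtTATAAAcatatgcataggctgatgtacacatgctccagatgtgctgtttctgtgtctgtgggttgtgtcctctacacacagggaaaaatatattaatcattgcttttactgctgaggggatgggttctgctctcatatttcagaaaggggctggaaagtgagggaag
Col4a1, chr8:11312777-11313076, minus strand: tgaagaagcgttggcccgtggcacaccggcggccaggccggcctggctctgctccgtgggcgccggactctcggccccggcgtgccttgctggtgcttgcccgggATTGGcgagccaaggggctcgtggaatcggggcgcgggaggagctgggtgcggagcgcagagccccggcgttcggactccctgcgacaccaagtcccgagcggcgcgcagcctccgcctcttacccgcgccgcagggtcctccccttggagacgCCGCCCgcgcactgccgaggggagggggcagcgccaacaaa
Col4a2, chr8:11312555-11312854, plus strand: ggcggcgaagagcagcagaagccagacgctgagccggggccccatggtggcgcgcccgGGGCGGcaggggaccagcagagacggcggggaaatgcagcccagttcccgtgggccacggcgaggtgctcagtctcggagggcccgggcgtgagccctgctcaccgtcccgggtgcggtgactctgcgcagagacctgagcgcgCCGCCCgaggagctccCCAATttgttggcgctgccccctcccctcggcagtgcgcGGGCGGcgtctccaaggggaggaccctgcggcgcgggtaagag

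The Col4a1 and Col4a2 start sites lay 21 bases apart on opposite strands, and the windows shared 78 bases. The GC box marked in Col4a1 lies in these shared bases and is marked again in Col4a2, so it counts for both windows. Their GC content was 74.0% and 73.7%, against 61% for Col1a2 and 37.7% for Col3a1. The Col3a1 window held a TATA box and neither of the other motifs, whereas the other 3 windows held no TATA box and both of the other motifs. RefSeq windows matched 35 of the 43 members, some with more than 1 start, for 38 windows in all. A GC box was found in 60.5% of these and in 35.7% of all 32851 windows, a CCAAT box in 34.2% and 37.4%, and a TATA box in 13.2% and 13.6%. A match of letters is a description and not a binding site.

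The collagen genes spanned a wide range of levels. Means exceeded 100 FPKM for 7 members, 10 FPKM for 16 and 1 FPKM for 28. In order these 7 were Col3a1, Col4a1, Col1a2, Col6a2, Col6a1, Col1a1 and Col4a2, and together they held 77.4% to 78.1% of all collagen FPKM in each library. The ranges of each pair of neighbours in that order overlapped, so the order itself is loose. Collagen genes summed to 1724 and 1517 FPKM in Control and to 1566 and 1327 FPKM in Shh-Stk11 lungs, with the groups overlapping. Their share of all FPKM was 0.297% and 0.241% in Control and 0.304% and 0.234% in Shh-Stk11 lungs. Fibrillar chains made up 38.0% to 40.9% of the collagen sum, basement membrane chains 25.9% to 28.2% and the remaining types 32.8% to 34.5%, so the balance of the classes was close in all 4 libraries.

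**Figure D1:**
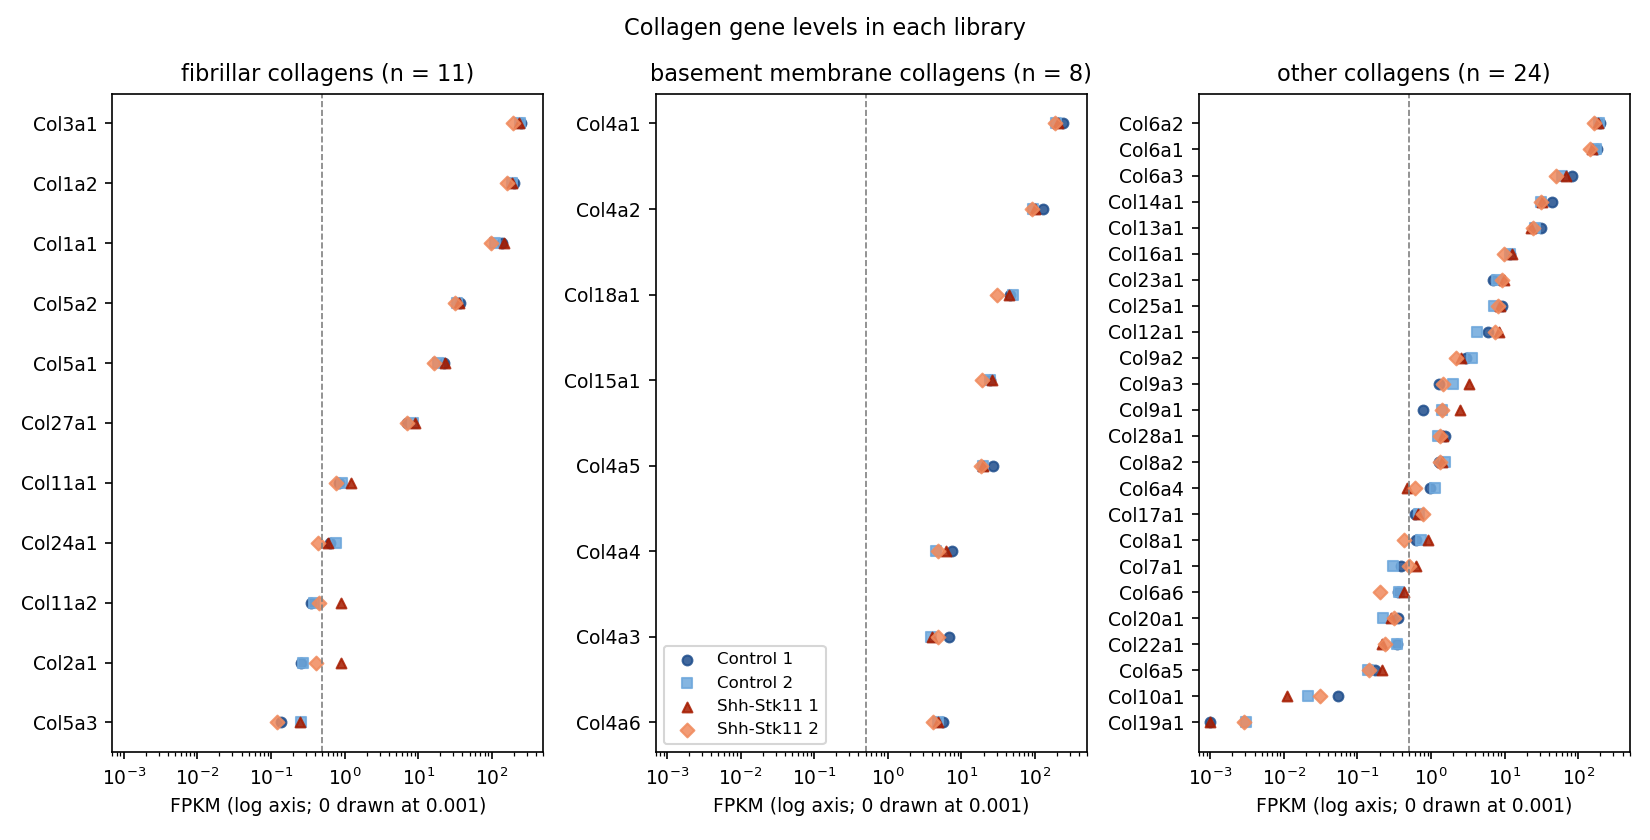
FPKM of each collagen gene in each library on a log axis, in 3 panels by class and ordered by mean; a value of 0 is drawn at 0.001 and the dashed line marks 0.5 FPKM. The 4 libraries of most abundant genes lie nearly on top of each other, while the cartilage chains Col2a1, Col9a1, Col9a3 and Col11a2 are spread out, with Shh-Stk11 1 to the right.

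No collagen gene passed the test between genotypes. At an adjusted p under 0.05, 0 of 34 members were called higher and 0 lower, against 0.98% and 1.29% of all genes tested. At an unadjusted p under 0.05, 2 members were higher, Col12a1 and Col23a1, against 8.04% of all genes, and 1 was lower, Col6a4, against 7.18%. The smallest adjusted p among the members was 0.175, for Col12a1. The 95% confidence interval of the log2 fold change lay within a 2-fold change in either direction for 27 of the 34, and it excluded a 1.5-fold change in either direction for 13. For the other 21 a change of that size was not excluded.

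Fitted differences nevertheless leaned to one side. Of the 34 members, 25 (73.5%) had a log2 fold change below 0 and the median was -0.11, against 58.3% of all genes and a median of -0.05. Both Shh-Stk11 libraries were below both Control libraries for 10 members and above both for 3. Over all genes tested these arrangements made up 27.6% and 19.2%. The 10 were Col3a1, Col24a1, Col4a5, Col4a6, Col18a1, Col6a1, Col6a2, Col6a4, Col9a2 and Col13a1, and the 3 were Col11a2, Col12a1 and Col23a1. The share of members with lower values, 29.4%, is close to that background, and the share with higher values, 8.82%, is below it.

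**Figure D2:**
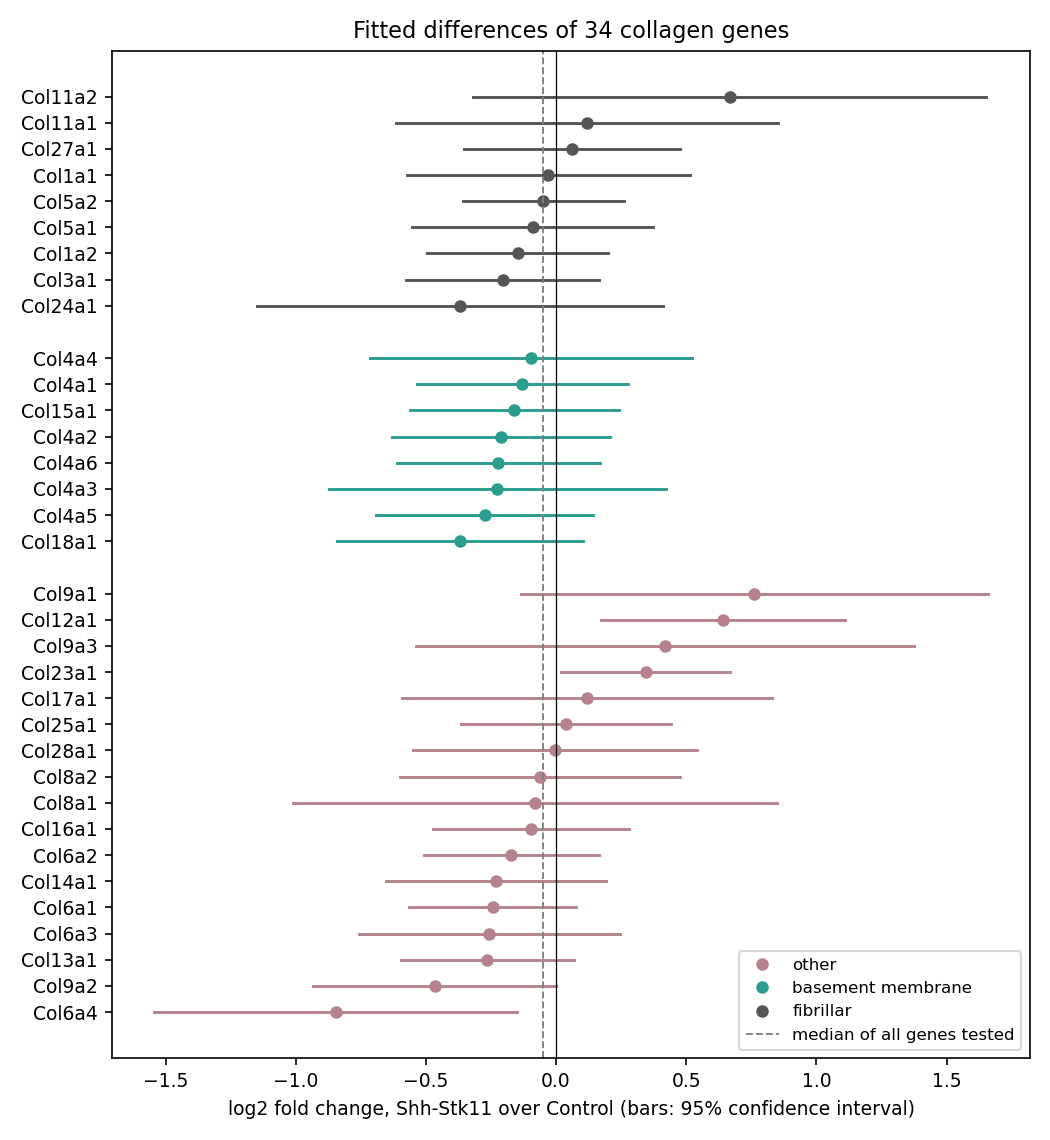
Fitted log2 fold change of Shh-Stk11 over Control for the 34 tested collagen genes, grouped by class, with bars for the 95% confidence interval; the dashed line is the median of all genes tested, -0.05. All 8 basement membrane genes lie left of 0, and only Col12a1, Col23a1 and Col6a4 have intervals that leave out 0.

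Among the fibrillar chains, Col3a1, whose type III homotrimers form fine reticular fibrils, was the most abundant collagen gene of the lung. It stood at 248.9 and 242.2 FPKM in Control and at 233.8 and 193.8 FPKM in Shh-Stk11 lungs (-0.21 ± 0.15 SE on the log2 scale, adjusted p = 0.589, as for the differences in parentheses that follow). Both Shh-Stk11 libraries were lower, but Shh-Stk11 1 lay closer to Control 2 than to Shh-Stk11 2, and with 1 library left out the value ran from -0.34 to -0.07, nearest 0 without Shh-Stk11 2. Col1a2, the second chain of type I collagen, was at 198.5 and 186.8 FPKM against 186.8 and 161.7 FPKM (-0.15 ± 0.14 SE, adjusted p = 0.683), with Control 2 and Shh-Stk11 1 level with each other. Leaving out Shh-Stk11 1 gave -0.25 for this gene and leaving out Shh-Stk11 2 gave -0.04. Col1a1, the first chain of type I collagen, was at 138.9 and 109.2 FPKM against 147.8 and 98.5 FPKM (-0.03 ± 0.23 SE, adjusted p = 0.967), so that Shh-Stk11 lungs gave both its highest and its lowest value. The fitted value turned to 0.26 without Shh-Stk11 2 and to 0.14 without Control 1, and it was -0.32 without Shh-Stk11 1.

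The type V chains nucleate type I fibrils. Col5a2 read 36.6 and 33.6 FPKM in Control and 36.1 and 31.8 FPKM in Shh-Stk11 lungs. Col5a1 read 22.4 and 18.8 FPKM against 22.9 and 16.2 FPKM. Their log2 fold changes were -0.05 and -0.09, and in each gene the groups overlapped. Col27a1, a fibrillar chain made in cartilage and other tissues, lay between 7.02 and 9.03 FPKM with overlapping groups. Col24a1, which is known from bone, was low in every library, at 0.632 and 0.762 FPKM against 0.598 and 0.442 FPKM (-0.37, adjusted p = 0.646).

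The fibrillar median was -0.05, equal to that of all genes, with 6 of 9 members below 0, and the 7 left without the cartilage chains Col11a1 and Col11a2 had a median of -0.09. This median turned to 0.021 under quantile normalization, to 0.16 without Shh-Stk11 2 and to 0.01 without Control 1, and it was -0.25 without Shh-Stk11 1. With the trend on transcript length and GC content removed it was -0.14, with 8 of 9 below 0 against 50.6% of all genes.

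Basement membrane chains were all fitted below 0. The median of the 8 was -0.22, from -0.37 for Col18a1 to -0.10 for Col4a4, and none passed the test (lowest adjusted p 0.447). Groups did not overlap for 3 of the 8, Col4a5, Col4a6 and Col18a1, or 37.5%, against 27.6% of all genes. Control 1 was the highest library for 6 of the 8 and Shh-Stk11 2 the lowest for 6. The median stayed below 0 in every alternative tried, although several of these could not move it. The median shrank to -0.02 without Control 1 and to -0.11 without Shh-Stk11 2, and widened to -0.38 without Control 2.

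Col4a1 and Col4a2, whose chains make up the network found in nearly all basement membranes and whose start regions are printed above, were the most abundant of the class. Col4a1 was at 242.7 and 191.3 FPKM in Control and at 207.7 and 187.0 FPKM in Shh-Stk11 lungs (-0.13 ± 0.17 SE, adjusted p = 0.767). Col4a2 was at 126.9 and 94.1 FPKM against 99.0 and 89.9 FPKM (-0.21 ± 0.17 SE, adjusted p = 0.623). In both genes Control 1 stood above the 3 other libraries, which were close together, and without it the fitted values were 0.04 and 0.003.

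Col18a1, the source of endostatin and a basement membrane proteoglycan, was at 45.4 and 49.8 FPKM in Control and at 44.7 and 30.3 FPKM in Shh-Stk11 lungs (-0.37 ± 0.20 SE, adjusted p = 0.447). Its low mean came from Shh-Stk11 2, since Shh-Stk11 1 lay within 1 FPKM of Control 1. Col15a1, its close relative, read 24.6 and 24.8 FPKM against 25.7 and 18.9 FPKM, again with Shh-Stk11 2 apart from 3 similar libraries.

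The remaining type IV chains were less abundant. Col4a5, on the X chromosome, was at 26.8 and 19.4 FPKM against 19.3 and 18.4 FPKM. Col4a6 lies head to head with it, 1343 bases from start to start in RefSeq, and was at 5.62 and 4.81 FPKM against 4.77 and 4.14 FPKM. In both genes the groups were separate by less than 0.1 FPKM, and the lowest value was that of the male library. The part of sex in these values was not tested. Col4a3 and Col4a4, the chains that join Col4a5 in the mature alveolar and glomerular basement membrane, lay between 3.87 and 7.40 FPKM, highest in Control 1 and lowest in Control 2.

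**Figure D3:**
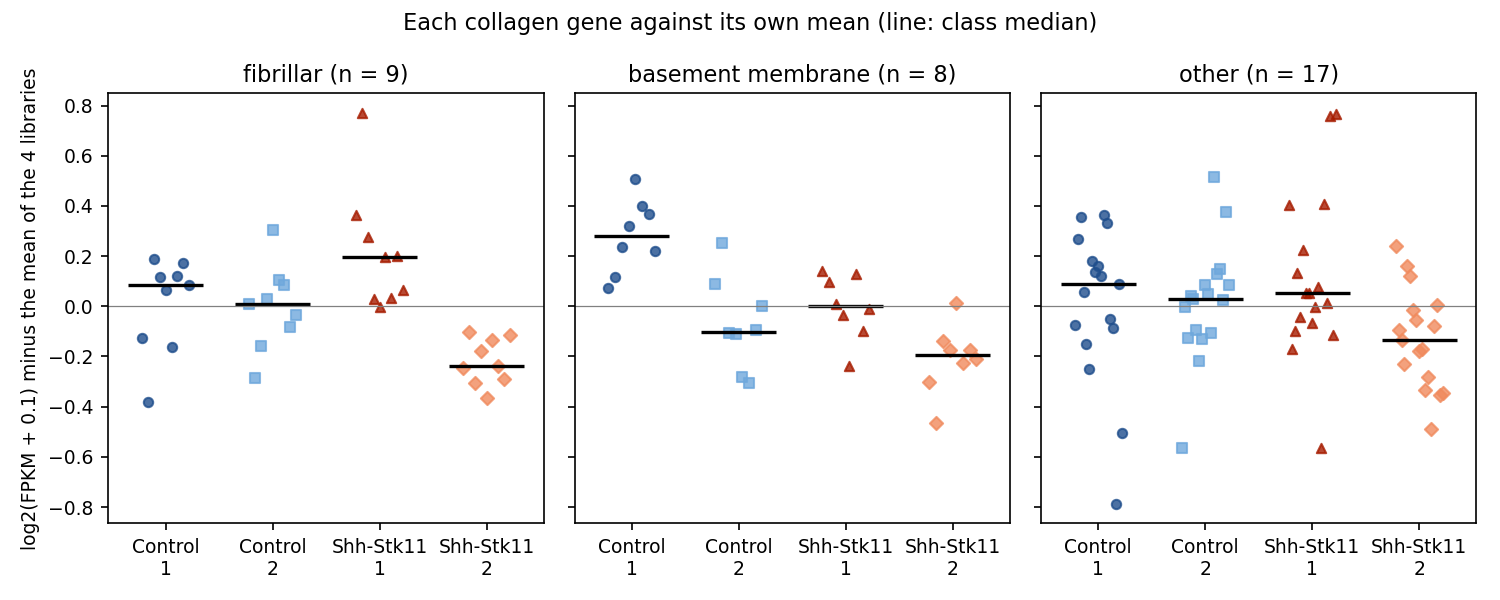
log2(FPKM + 0.1) of each tested collagen gene minus its mean over the 4 libraries, one point per gene, in 3 panels by class, with a line at the class median in each library. In every class the median of Shh-Stk11 2 is the lowest, at -0.24 for fibrillar, -0.19 for basement membrane and -0.13 for other chains, and in the basement membrane class the median of Control 1 is the highest, at 0.28.

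Type VI collagen was the largest group among the remaining types by summed FPKM. Col6a2 was at 198.9 and 189.0 FPKM in Control and at 182.5 and 162.4 FPKM in Shh-Stk11 lungs (-0.17 ± 0.14 SE, adjusted p = 0.617). Col6a1 was at 181.4 and 172.0 FPKM against 155.1 and 143.6 FPKM (-0.24 ± 0.13 SE, adjusted p = 0.462). Both Shh-Stk11 libraries were below both Controls in these genes, and for Col6a1 the gap between the groups exceeded the gap within either. The Col6a2 value was -0.09 without Shh-Stk11 2, -0.26 without Shh-Stk11 1 and -0.07 under quantile normalization, where Col6a1 was at -0.16. Col6a3, the longest of the 3 main chains, was at 82.0 and 59.2 FPKM against 67.3 and 50.5 FPKM, with overlapping groups (-0.26, adjusted p = 0.618). After a trend on transcript length and GC content was removed in each library, Col6a3 had a value of -0.42 with an unadjusted p of 0.0129 and an adjusted p of 0.192, whereas Col6a1 shrank to -0.16 and Col6a2 to -0.14.

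Col6a4, a chain that can take the place of the Col6a3 chain, gave the largest fitted difference below 0. It was at 0.968 and 1.11 FPKM in Control and at 0.474 and 0.598 FPKM in Shh-Stk11 lungs, 51.5% of the Control mean (-0.85 ± 0.29 SE, unadjusted p = 0.0244, adjusted p = 0.230). The groups were well separated relative to their spread, and the values rested on an estimated 258 and 246 reads against 102 and 139. Across the alternatives the difference stayed below 0 and its lowest adjusted p was 0.082, with eBayes without the trend. With a pseudocount of 1 the difference shrank to -0.41 (adjusted p = 0.199). The sister chains Col6a5 and Col6a6 stayed between 0.139 and 0.432 FPKM and were not tested.

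Of the FACIT collagens, Col12a1 gave the smallest p of all members. It encodes the large chain of type XII collagen, a bridge between fibrils found in tendon and other stressed tissue. It was at 5.91 and 4.18 FPKM in Control and at 8.27 and 7.37 FPKM in Shh-Stk11 lungs, 1.55-fold higher by group means (0.64 ± 0.19 SE, unadjusted p = 0.0148, adjusted p = 0.175). The gap between the groups was smaller than the gap between the Controls. Leaving out Control 2 gave 0.40 for Col12a1 and leaving out Control 1 gave 0.89. At 11511 bases its transcript was the longest of the tested members, and with the trend on length and GC content removed its difference was 0.41 (adjusted p = 0.246).

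Col14a1, a FACIT chain of fetal connective tissue, was at 44.0 FPKM in Control 1 and between 31.4 and 32.2 FPKM in the 3 other libraries. Col16a1 lay between 9.81 and 12.6 FPKM with overlapping groups.

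Transmembrane collagens did not share a direction. Col23a1 was at 7.03 and 7.84 FPKM in Control and at 9.81 and 9.11 FPKM in Shh-Stk11 lungs, 1.27-fold higher by group means (0.34 ± 0.13 SE, unadjusted p = 0.0403, adjusted p = 0.295). Here the gap between the groups exceeded the gap within either. Col13a1, a component of cell adhesions, leaned the other way at 31.2 and 25.9 FPKM against 23.1 and 24.3 FPKM (-0.26, adjusted p = 0.438). Col25a1 lay between 7.07 and 9.34 FPKM, and Col17a1, the hemidesmosome collagen of basal epithelial cells, between 0.603 and 0.771 FPKM, both with overlapping groups.

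The short chain collagens Col8a1 and Col8a2, which form networks around vessels, lay between 0.435 and 1.54 FPKM, and Col28a1, known from peripheral nerve, between 1.26 and 1.53 FPKM. Their fitted differences were -0.08, -0.06 and -0.005. The median over the 17 remaining types was -0.08 with 11 below 0. Leaving out Shh-Stk11 1 gave -0.23, and leaving out Shh-Stk11 2 gave 0.017.

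Most cartilage collagens were highest in the same library. Types II, IX and XI build the thin fibrils of cartilage, which in the respiratory tract is the cartilage of trachea and bronchi. Col2a1, their main fibril chain, was at 0.255 and 0.275 FPKM in Control and at 0.891 and 0.407 FPKM in Shh-Stk11 lungs. Col11a2 was at 0.350 and 0.381 FPKM against 0.899 and 0.445 FPKM (0.67, adjusted p = 0.510). Col11a1 was at 0.835 and 0.926 FPKM against 1.21 and 0.761 FPKM. Shh-Stk11 1 was the highest library in each of these. Shh-Stk11 2 also lay above both Controls for Col2a1 and Col11a2, and below both for Col11a1.

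The type IX chains coat those fibrils. Col9a1 was at 0.769 and 1.43 FPKM in Control and at 2.44 and 1.404 FPKM in Shh-Stk11 lungs (0.76, adjusted p = 0.411). Col9a3 was at 1.30 and 2.002 FPKM against 3.27 and 1.46 FPKM (0.42, adjusted p = 0.676). Of the 6 cartilage chains, 5 were highest in Shh-Stk11 1, and the sixth was Col9a2, at 2.96 and 3.64 FPKM in Control and at 2.56 and 2.15 FPKM in Shh-Stk11 lungs (-0.47 ± 0.19 SE, adjusted p = 0.329).

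The cartilage markers differed among themselves. Their summed level was 19.4 FPKM in both Controls, 25.8 FPKM in Shh-Stk11 1 and 18.3 FPKM in Shh-Stk11 2, but without Sox9 it was 13.05 and 12.4 FPKM in Control and 11.3 and 9.81 FPKM in Shh-Stk11 lungs. Most of that remainder was Hapln1, and the other 9 markers summed to 3.43 and 4.11 FPKM against 3.69 and 2.82 FPKM, with overlapping groups. Of the 11 listed markers 5 reached the tested level, 2 with fitted differences above 0 and 3 below, and their median was -0.29, or -0.44 with the trend on length and GC content removed. Sox9, a master regulator of cartilage that lung bud tips also express, was at 6.35 and 7.03 FPKM in Control and at 14.5 and 8.45 FPKM in Shh-Stk11 lungs (0.72, adjusted p = 0.238). Among the tested markers, 1 was higher and 1 lower at an unadjusted p under 0.05 and 0 were called by limma. Matn3 was highest in Shh-Stk11 1 at 1.65 FPKM and lowest in Control 1 at 0.589 FPKM. Chad, which encodes chondroadherin, was at 2.09 and 1.57 FPKM in Control and at 1.23 and 1.08 FPKM in Shh-Stk11 lungs (-0.61, unadjusted p = 0.0409, adjusted p = 0.297). Hapln1 and Cnmd (Lect1 in the table) had fitted differences of -0.29 and -0.89. The defining cartilage proteoglycan Acan was near 0 in every library, at most 0.086 FPKM, Matn1 was at most 0.0721 FPKM, and Snorc was listed at 0 in all 4. The part of cartilage in these values was not tested. No cartilage chain was called in any alternative that kept all 4 libraries and in which it was tested. Col2a1, below the 0.5 FPKM filter, entered only the fits with a filter of 0.1 FPKM or none. It was not in the fit without Shh-Stk11 1.

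**Figure D4:**
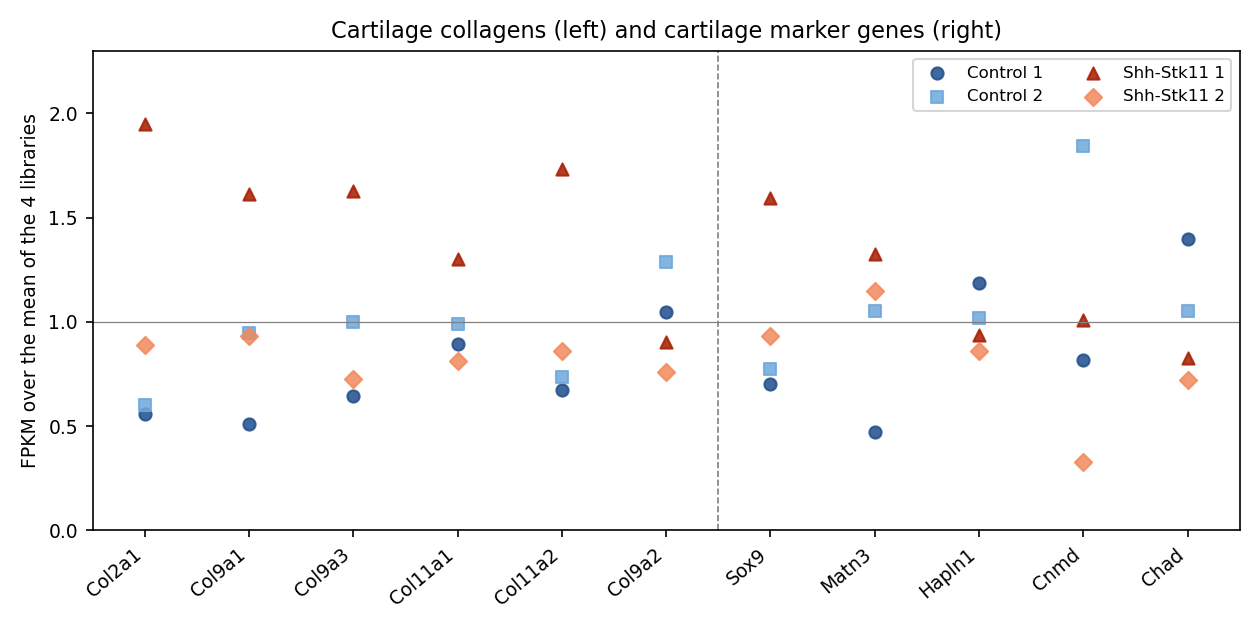
FPKM divided by the mean of the 4 libraries for 6 cartilage collagen genes on the left and the 5 cartilage marker genes that reached the tested level on the right, one symbol per library, with a line at 1. Shh-Stk11 1 is the highest library for Col2a1, Col9a1, Col9a3, Col11a1 and Col11a2 and for Sox9 and Matn3, whereas Col9a2, Hapln1, Cnmd and Chad are highest in a Control library.

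The remaining 9 members did not reach 0.5 FPKM on average and were not tested. Just above that mark stood Col11a2, with a mean of 0.519 FPKM, and just below it Col2a1 and Col7a1, with 0.457 and 0.451 FPKM. Col7a1, the anchoring fibril collagen under skin epithelium, was at 0.385 and 0.306 FPKM in Control and at 0.615 and 0.498 FPKM in Shh-Stk11 lungs. Col22a1, a collagen of tissue junctions, was at 0.350 and 0.347 FPKM against 0.213 and 0.233 FPKM. These 2 and Col2a1 were the untested members whose groups did not overlap, Col22a1 lower and the others higher. Over all genes tested these arrangements made up 27.6% and 19.2%.

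Levels of the other untested genes were of this size or lower. Col5a3 lay between 0.123 and 0.253 FPKM, Col20a1 between 0.222 and 0.356 FPKM, Col6a5 between 0.139 and 0.214 FPKM, and Col6a6 between 0.201 and 0.432 FPKM. Each value of these 7 genes stood for an estimated 23.6 to 167 reads. Col10a1, the collagen of hypertrophic cartilage, was represented by 1.0 to 5.9 reads per library, and Col19a1 by at most 0.5. Both are at or near the limit of 3 reads that a count of 0 allows, and no fold was computed for them.

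Chains of one collagen type were compared within each library. The Col6a1 to Col6a2 ratio was the steadiest of the 10 pairs, at 0.912 and 0.910 in Control and 0.850 and 0.884 in Shh-Stk11 lungs, a 1.07-fold span from highest to lowest. The Col4a1 to Col4a2 ratio spanned 1.10-fold, at 1.91 and 2.03 against 2.10 and 2.08. In both pairs the groups did not overlap, although the differences were small. Over the 10 pairs, Shh-Stk11 ratios were above both Controls in 2 and below both in 2, and groups overlapped in 6. For the levels of all genes tested, these separate arrangements made up 19.2% and 27.6%. In 5 of the 10 pairs, among them Col4a3 to Col4a4, whose FPKM tied in 1 library, the ratio varied less than either chain did on its own, and in the other 5 it varied more than at least 1 of them.

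The Col1a1 to Col1a2 ratio was 0.700 and 0.584 in Control and 0.791 and 0.609 in Shh-Stk11 lungs. The ratio spanned 1.35-fold, from Control 2 to Shh-Stk11 1, and the groups overlapped. Type I collagen protein holds 2 of the first chain for each of the second, but a ratio of RNA does not measure protein chains. A ratio of FPKM also depends on the transcript lengths used, and the annotation is not given. The Col4a5 to Col4a6 ratio ran from 4.04 to 4.77, the Col5a1 to Col5a2 ratio from 0.510 to 0.634 and the Col6a3 to Col6a1 ratio from 0.344 to 0.452, all with overlapping groups.

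Pairs of low genes varied more. The Col11a1 to Col11a2 ratio was 2.39 and 2.43 in Control and 1.35 and 1.71 in Shh-Stk11 lungs, and the Col9a1 to Col9a3 ratio was 0.593 and 0.712 against 0.744 and 0.963. The Col8a1 to Col8a2 ratio spanned 1.93-fold, from 0.334 to 0.643, both extremes in Shh-Stk11 lungs. The Col4a3 to Col4a4 ratio was 0.912 and 0.860 against 0.652 and exactly 1, since both genes were listed at 4.76198 FPKM in Shh-Stk11 2. In that library 195 of 12796 genes above 1 FPKM shared their value with another gene, and in the other libraries 126 to 160 did. Why these 2 values tie was not tested.

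**Figure D5:**
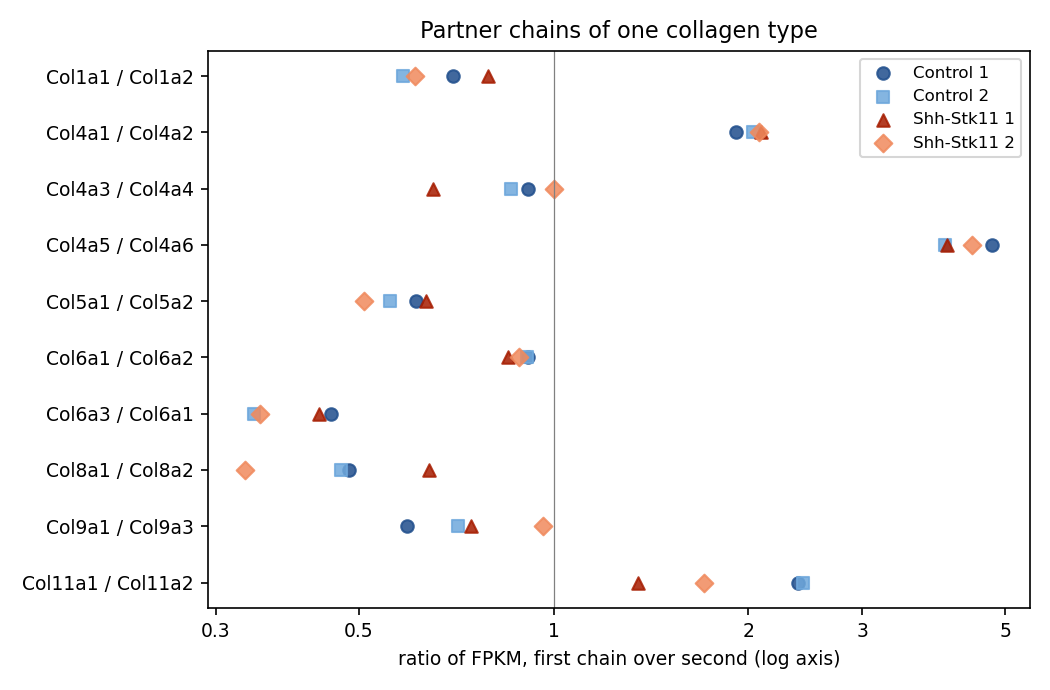
Ratio of FPKM of partner chains on a log axis for 10 pairs, one symbol per library, with a line at 1. The Col6a1 over Col6a2 and Col4a1 over Col4a2 ratios are tightly clustered. Col11a1 over Col11a2, a pair of low genes, is at 2.39 and 2.43 in Control and at 1.35 and 1.71 in Shh-Stk11 libraries. Groups are separate upward in 2 of the 10 pairs, downward in 2 and overlapping in 6.

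Values were lowest most often in Shh-Stk11 2 and highest most often in Control 1. Shh-Stk11 2 held the lowest value for 20 of the 34 tested members (58.8%), against 21.3% of all genes, and the highest for 1, Col17a1. Control 1 held the highest value for 16 (47.1%), against 24.7% of all genes. Shh-Stk11 1 was the highest for 12 and the lowest for 2, Col6a4 and Col13a1. Median deviations from each gene's mean over the 34 were 0.12 and 0.004 for the Controls and 0.05 and -0.18 for the Shh-Stk11 libraries. Shh-Stk11 2 was also the male library and had the lowest summed heart muscle markers, 56.7 FPKM against 113 to 231 FPKM. The part of either in the collagen values was not tested.

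Collagen transcripts are long, and the libraries differed along length. The tested members had a median transcript length of 5989 bases against 3309 bases for all genes, and 24 of the 34 were in the 2 longest of 10 equal length groups of all genes. In these groups the median log2 fold change of all genes was 0.06 and 0.19, against -0.19 in the shortest group. In the longest group the median deviation of all genes was 0.005 and -0.21 for the Controls and 0.18 and 0.02 for the Shh-Stk11 libraries, so the trend lay mainly between Control 2 and Shh-Stk11 1. With the trend on length and GC content removed in each library, the collagen median was -0.15 with 26 of 34 below 0 (76.5%), against 50.6% of all genes. By class the medians became -0.14 for fibrillar, -0.28 for basement membrane and -0.11 for other chains. On that scale the median deviations were 0.04 and 0.08 in Control and -0.01 and -0.13 in Shh-Stk11 lungs. Shh-Stk11 2 then held the lowest value for 17 of 34 (50%), against 23.9% of all genes, and Control 1 held the highest for 13 and Control 2 for 12. No member was called, and 4 (11.8%) had an unadjusted p under 0.05 against 14.5% of all genes on that scale, Col12a1 above 0 and Col4a5, Col6a3 and Col6a4 below.

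The cell types that make collagen were read from marker lists. Lung mesenchyme markers had a median log2 fold change of -0.37, with 9 of 10 below 0, against 58.3% of all genes. Of these markers 6 were lower at an unadjusted p under 0.05, against 7.18% of all genes, and 0 were called. Their summed level ran from 560 to 667 FPKM in Control and from 436 to 475 FPKM in Shh-Stk11 lungs. Wnt2, a mesenchymal signal for lung growth, was at 41.5 and 42.3 FPKM against 23.2 and 29.8 FPKM (-0.67, adjusted p = 0.087). Endothelial markers had a median of -0.38, with 9 of 9 below 0, 5 lower at an unadjusted p under 0.05 and 0 called. The shares of all genes are those just given. These markers summed to 796 to 894 FPKM in Control and 626 to 669 FPKM in Shh-Stk11 lungs. With the trend on length and GC content removed the mesenchymal and endothelial medians were -0.31 and -0.25. On that scale 5 of 10 and 5 of 9 had an unadjusted p under 0.05, against 14.5% of all genes. Of the mesenchyme markers, 5 of 10 were lowest in Shh-Stk11 2 and 4 in Shh-Stk11 1, and of the endothelial markers 7 of 9 were lowest in Shh-Stk11 1. The part of cell makeup in the collagen values was not tested.

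Other lists gave the makeup of the organ. Heart muscle markers, 5 of 6 tested, had a median of -0.86 with 0 calls and 0 at an unadjusted p under 0.05. Smooth muscle markers had a median of -0.12 with sums of 460 to 551 FPKM. Epithelial markers had a median of 0.16, with 6 of 8 fitted above 0. Their sums, dominated by the surfactant gene Sftpc, were lower in Shh-Stk11 lungs. They were 18452 and 16858 FPKM in Control against 9114 and 13329 FPKM. The 2 below 0 were Sftpc (-0.76, adjusted p = 0.447) and Sox2 (-0.35, adjusted p = 0.388), both with separate groups. Mesothelial markers had a median of -0.22 with sums of 307 to 410 FPKM. None of the smooth muscle, epithelial and mesothelial markers was called, with 1, 1 and 2 at an unadjusted p under 0.05. With the trend on length and GC content removed these medians became -0.03, 0.32 and -0.08, and 5 of 8 epithelial markers had an unadjusted p under 0.05, against 14.5% of all genes. Bone markers summed to 2.17 to 7.03 FPKM, skeletal muscle markers to 12.5 to 23.2 FPKM and Schwann cell markers to 12.4 to 22.8 FPKM. Of these lists Spp1, an osteopontin gene of many cell types (0.648 and 0.340 against 2.27 and 5.53 FPKM, adjusted p = 0.042), and Pax7 (0 and 0.00777 against 2.72 and 2.19 FPKM, adjusted p = 0.004) were called, both higher in Shh-Stk11 lungs. Spp1 was called in 4 of 14 alternatives, with adjusted p from 0.014 to 0.205. It was not called without Control 1 (0.148), Control 2 (0.205) or Shh-Stk11 2 (0.077), nor with the replicate block (0.170). Pax7 was called in 13 of 14, and its adjusted p was 0.061 with the replicate block. Myod1 was listed at 0 in all 4 libraries, and the bone gene Sp7 was at most 0.152 FPKM.

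Genes that process and bind collagen were examined as lists. Of 20 genes of chain modification and folding, 19 were tested, limma called 0 and the median was -0.18, or -0.07 with the trend on length and GC content removed. Serpinh1, the collagen chaperone HSP47, was at 433.5 and 462.0 FPKM in Control and at 367.5 and 359.4 FPKM in Shh-Stk11 lungs (-0.30, adjusted p = 0.422). The largest fitted rise of the list was P4ha2, a prolyl 4-hydroxylase subunit, at 0.30, and the largest fall Tmem38b at -0.32. Leprel4, the file's symbol for P3h4, had the list's only unadjusted p under 0.05 (-0.28, adjusted p = 0.319). Mia3 was listed at 0 in every library.

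Propeptide cleavage and cross-linking genes, 11 of 13 tested, had a median of -0.08 and 0 calls by limma, with 0 at an unadjusted p under 0.05. The median was -0.14 with a filter of 5 FPKM, -0.04 under median ratio scaling, -0.02 without Shh-Stk11 2 and -0.0002 with the trend on length and GC content removed. Their extremes were Bmp1, the procollagen C-proteinase, at 0.31 and Pcolce2, its enhancer, at -0.35. Lox, the main cross-linking enzyme, was at 184.9 and 163.4 FPKM against 158.5 and 144.2 FPKM (-0.20, adjusted p = 0.565), and its groups did not overlap.

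Collagen receptors, 7 of 10 tested, had a median of 0.06 and 0 calls by limma, with 1 higher and 1 lower at an unadjusted p under 0.05. The median ran from 0.01 to 0.17 over the alternatives, highest without Shh-Stk11 2 and lowest without Control 2. Itga1, the type IV collagen integrin chain, was at 14.0 and 10.1 FPKM in Control and at 18.3 and 19.3 FPKM in Shh-Stk11 lungs (0.66, adjusted p = 0.129). Ddr1, a receptor kinase for collagen in epithelium, was at 20.4 and 16.8 FPKM against 13.6 and 13.4 FPKM (-0.45, adjusted p = 0.184). The groups of both were separate, in opposite directions.

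Degradation genes and their inhibitors, 9 of 12 tested, had a median of -0.15 and 0 calls by limma, from 0.30 for Mmp15 to -0.68 for Timp4 (adjusted p = 0.197), the only one of them with an unadjusted p under 0.05. That median was -0.02 with the trend on length and GC content removed, -0.04 with no filter and -0.08 with a filter of 5 FPKM. It turned to 0.05 without Control 1 and to 0.02 without Shh-Stk11 1. Other basement membrane proteins, 15 of 15 tested, had a median of -0.14, 0 calls by limma and 0 at an unadjusted p under 0.05, from 0.23 for the laminin chain Lama2 to -0.32 for Lama1. With the trend removed 14 of the 15 were below 0 (93.3%, against 50.6% of all genes), 5 had an unadjusted p under 0.05 (33.3%, against 14.5%) and the median was -0.18. Control 1 was the highest library for 13 of these 15, as it was for 6 of the 8 basement membrane collagens, and the median of the 15 was 0.01 without Control 1 and -0.33 without Control 2.

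The one called gene among these lists was Aspn, which encodes asporin, a small leucine-rich proteoglycan that binds type I collagen. It was at 22.9 and 23.0 FPKM in Control and at 37.3 and 38.1 FPKM in Shh-Stk11 lungs (0.71 ± 0.11 SE, adjusted p = 0.036). Each genotype's libraries agreed within 1 FPKM. The next in size in its list was Ogn, encoding the related protein osteoglycin, at 35.3 and 38.5 FPKM against 59.2 and 53.0 FPKM (0.60, adjusted p = 0.075), whereas Fmod, another relative, was at 34.6 and 45.0 FPKM against 30.2 and 23.0 FPKM (-0.58, adjusted p = 0.201). Over the 11 tested of 15 fibril-associated genes the median was -0.10, and from -0.13 to 0.08 over the alternatives, and these 3 relatives did not share a direction. With the trend on length and GC content removed, the Aspn difference was 0.32 with an adjusted p of 0.454, so its call did not hold there. Aspn was called in 6 of 15 alternatives. The call was also lost with no filter (adjusted p = 0.082), with eBayes without trend (adjusted p = 0.067), with the replicate block (adjusted p = 0.133) and without any 1 of the 4 libraries (adjusted p = 0.134 to 0.149), and the difference stayed above 0 throughout.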

How the data were processed

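Total RNA of E16.5 lungs was sequenced as single-end reads of 50 bases on a HiSeq-2500 instrument, and the study's methods describe the replicates as independent biological ones. The authors deposited 1 table of FPKM values per gene, with a column for each of the 4 libraries. The submitters' processing notes name TopHat2 2.0.13 and Cufflinks 2.2.1 and the builds GRCm38 and mm9. The annotation is not given in the sources used here. FPKM are not counts, so no count model was used.

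Collagen genes were taken by symbol. This left out Col26a1, listed as Emid2 at 1.25 to 1.54 FPKM with a log2 fold change of 0.03 (limma adjusted p = 0.968). The members, classes and gene lists were chosen with earlier results of these data known. Older symbols were matched through RefSeq synonyms, and transcript length and GC content came from GENCODE M21 (20242 symbols matched directly, 1916 by synonym, 398 not). Depth was estimated from the size of steps between low values, of which 61.8% of 1806 low genes were whole multiples within 0.01, too few to recover counts. By that estimate 1 read on 2000 bases was worth 0.0146 to 0.0180 FPKM.

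Genotypes were compared with limma 3.58.1 in R 4.3.3 (lmFit, then eBayes with trend, 4.48 prior and 2 residual degrees of freedom) on log2(FPKM + 0.1), a scale that understates the change of low genes. The 13770 genes with a mean of 0.5 FPKM or more entered the fit. Tests were two-sided with a threshold of 0.05 on p-values adjusted after Benjamini and Hochberg over these 13770 genes. The code was tested on simulated data. A class or list is described by its count and median, with no test of its own.

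Named genes were the 3 most abundant members of each class, members with p under 0.05, partner chains and members next to the 0.5 FPKM mark, with ranges for low members. From each pathway list, the called genes and those with the largest rise and fall were named. From the marker lists, the called genes and those given beside a result were named. Serpinh1, Lox, Leprel4, Mia3, Ogn, Fmod, Wnt2, further members and the markers given were added after their values were seen.

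Alternatives were pseudocounts of 1 and 0.01, filters of 0.1 and 5 FPKM and no filter, quantile and median ratio scaling, eBayes without trend, the replicate number as a block, removal of a trend on length and GC content, and each library left out. Both groups number their replicates 1 and 2, and the labels do not tie a number to a litter or batch.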

Additional observations from a re-analysis of the deposited data

How the results depend on the processing

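Collagen calls stayed at 0 in each direction in every alternative that kept all 4 libraries. Some of these called few genes at all, such as 6 higher and 7 lower with the replicate block. The basement membrane median stayed below 0 in all 16 of its alternatives, from -0.38 to -0.02. Several of them could not move it. It was -0.22 as before with a filter of 0.1 FPKM or none, which all 8 members pass. The same held for eBayes without trend and the replicate block, which change only the error. The median of the other collagens ran from -0.23 to 0.017 when 1 library was left out. The fibrillar median ran from -0.25 to 0.16, Col12a1 from 0.40 to 0.89, Col23a1 from 0.27 to 0.42 and Col6a4 from -0.99 to -0.41. Of 239 values for single genes and pathway lists, 206 stayed within the replicate spread or on the same side of the threshold and 33 moved, among them Col1a1 (-0.32 to 0.26).

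Stk11 kept its direction and lost its call at a pseudocount of 1 (-0.67, adjusted p = 0.051), with a filter of 0.1 FPKM (-0.69, adjusted p = 0.052) or no filter (-0.69, adjusted p = 0.106), quantile normalization (-0.62, adjusted p = 0.081), median ratio scaling (-0.65, adjusted p = 0.061), eBayes without trend (-0.69, adjusted p = 0.091), the replicate block (-0.69, adjusted p = 0.154), the length and GC trend removed (-0.56, adjusted p = 0.078), that trend with the replicate block (-0.56, adjusted p = 0.228), and with 1 library left out (-0.78 to -0.60). The cause was not tested, except that leaving out a library and the block leave fewer residual degrees of freedom.

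Calls over all genes, 135 higher and 178 lower, became 20 and 41 without a filter and 85 and 101 once the trend on length and GC was taken out. A filter of 5 FPKM left 90 lower, and leaving out 1 library gave 15 to 64 higher and 23 to 127 lower. With the replicate block they were 6 and 7, and 22 and 34 with the trend removed as well. Deviations of same-numbered libraries correlated at -0.114 over 13770 genes, and no design source pairs them. A crossed pairing, chosen after seeing the data, gave 360 and 315 calls. With 1 library left out, the lone library of its group is assumed to vary like the others. Depth of 29.8 M to 36.8 M reads limits Col10a1 and Col19a1, which rest on under 6 reads in each library.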
